A study of Mus musculus with 4 samples.

Results

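The adipocyte genes described here are 10 genes that fat cells use to store, mobilise and signal about lipid, namely Adipoq, Plin1, Cidec, Cfd, Retn, Lep, Plin4, Lpl, Fabp4 and Pparg. They were read by symbol from the gene list of the count matrices, and all 10 were present among 32285 genes. The values came from Visium arrays, glass slides on which a grid of barcoded spots captures the RNA of the tissue above, and each value is a count of unique molecular identifiers (UMIs), which stand for captured RNA molecules. Longitudinal sections of 10 µm covered the injured Achilles tendon and the tissue around it, taken 14 days after a punch of 0.5 mm in mice aged 12 weeks. There were 2 sections from TrkA F592A mice labelled with the treatment 1NMPP1 (F592A 1 and F592A 2) and 2 sections from TrkA WT mice labelled Control (WT 1 and WT 2). TrkA is the receptor of nerve growth factor, and the F592A form carries a kinase that 1NMPP1, a bulky kinase inhibitor, can block. All groups had the same surgery and buprenorphine. The labels do not say whether WT mice were given 1NMPP1, and they describe males and females without giving the sex of a section.

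The labels state that 4 mice were pooled per genotype and do not tie a section to an animal, so p-values measure the spread between sections, which may come from the same animals. Each F592A section held 2 large pieces of tissue, and the outlines of the F592A sections shared 76.8% of their grid positions, against 51.7% for F592A 1 with WT 1, 39.4% for WT 1 with WT 2 and 25.7% for F592A 1 with WT 2. WT 1 was 1 connected piece, and WT 2 had 1 large piece and a fragment of 55 spots. Xist, the RNA of the inactive X chromosome, was at 139.5 CPM (counts of a gene scaled to equal totals of UMIs) in WT 2, against at most 0.324 CPM in each of the other 3 sections. By this RNA WT 2 held female tissue, and the other 3 sections, both F592A sections among them, held next to none. Sex is thus mixed into the comparison of F592A with WT and into fits without WT 2, and its part was not tested. Slow muscle markers summed to 539 and 540.5 CPM in F592A sections, against 2193 and 1280 CPM in WT sections. Sections held 30154873 to 43957617 UMIs, and 2024 to 3043 spots per section passed the minimum of 500 UMIs, 10649 in all. A spot covers several cells, so in these data fewer fat cells and less RNA per fat cell cannot be told apart.

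White adipocytes keep triglyceride in a single large droplet. Pparg, a nuclear receptor, is the master transcription factor of the adipocyte and acts with the C/EBP family. Lpl, an enzyme that adipocytes and muscle secrete to the capillary wall, frees fatty acids from blood lipoproteins, and Fabp4 carries fatty acids inside adipocytes, capillary endothelium and macrophages. Plin1 and Plin4 coat lipid droplets, Plin1 as the gatekeeper of lipolysis, and Cidec fuses small droplets into large ones. Adipoq (adiponectin), Lep (leptin), Retn (resistin, a product of adipocytes in mice) and Cfd (adipsin, a complement protease) are secreted.

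The RefSeq upstream sequences of a pair of secreted members are shown because Adipoq is the gene to which the others are compared below, and because Lep, the member with the largest share of its UMIs in the fat-rich region described below, carried a perfect match to the C/EBP core motif. The motif was searched as TTGCNNAA on both strands in the 250 bases before the annotated start, and a match is shown in capitals, 5′ to 3′ on the strand of the gene.

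Lep, GRCm38.p6, chr6:29059971-29060220, plus strand: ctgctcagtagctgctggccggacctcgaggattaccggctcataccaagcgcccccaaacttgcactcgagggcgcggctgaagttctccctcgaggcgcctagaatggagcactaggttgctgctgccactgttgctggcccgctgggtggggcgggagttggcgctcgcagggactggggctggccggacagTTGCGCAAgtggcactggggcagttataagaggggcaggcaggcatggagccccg

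Adipoq, GRCm38.p6, chr16:23146286-23146535, plus strand: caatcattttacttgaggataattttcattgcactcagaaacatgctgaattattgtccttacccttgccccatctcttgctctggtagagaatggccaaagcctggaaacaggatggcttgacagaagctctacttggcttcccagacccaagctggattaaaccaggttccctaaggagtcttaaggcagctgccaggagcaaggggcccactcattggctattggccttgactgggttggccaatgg

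The Lep window held the motif once, starting 55 bases before the start of the gene, and the Adipoq window did not hold it. RefSeq entries were found for 8 of the 10 genes (all but Lpl and Fabp4), with 11 windows in all, since some genes had more than 1. Cidec, Lep, Plin1 and Pparg held the motif in at least 1 entry, in 4 of the 11 windows. Of all 32851 windows of that length, 9.56% held it. A direct repeat of the kind PPARG binds with its partner RXR, written AGGNCANAGGNCA, was in 0 of the 11 windows and in 0.338% of all windows. In GRCm38.p6 the genes lie at chr16:23146536-23157968 (Adipoq), chr7:79721164-79732904 (Plin1), chr6:113424634-113435760 (Cidec), chr10:79890853-79892655 (Cfd) and chr8:3655770-3659818 (Retn). The others lie at chr6:29060221-29073876 (Lep), chr17:56100587-56109948 (Plin4), chr8:68880555-68906932 (Lpl), chr3:10204342-10208616 (Fabp4) and chr6:115360879-115490404 (Pparg).

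The 10 genes differed widely in abundance and spread. Fabp4 had 55481 UMIs in all and at least 1 UMI in 77.8% of spots, and Lpl had 47864 UMIs and 82.7% of spots. Cfd had 23937 UMIs in 36.9% of spots. The others were sparse, from 3487 UMIs in 12.0% of spots for Adipoq down to 648 UMIs for Pparg and 220 UMIs in 1.40% of spots for Lep.

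Where the genes lay was described over 14 regions of spots, found by clustering all sections together with the 10 genes and a list of 10 other adipocyte genes left out. One region was led, among the genes that took part in the clustering, by Nnat, Scd1, Ces1d and Trf, and it is called the Nnat-led region. Nnat encodes neuronatin, which adipocytes also make, Scd1 a desaturase of fatty acid synthesis, Ces1d a carboxylesterase abundant in fat and Trf transferrin. It held 148 of 10649 spots. The other adipocyte list, which shares no gene with the 10 and took no part in the clustering, summed to 3209 CPM there and 47.7 CPM in all other spots, 67.3-fold apart, and all 10 of its genes were detected there. Cyp2e1 was at 1080 CPM in the Nnat-led region and 7.89 CPM elsewhere, Lipe, the hormone-sensitive lipase, at 856 and 21.5 CPM, and Pck1, which makes glycerol phosphate in fat, at 362 and 2.16 CPM. Ucp1 and Cidea, which define brown fat, were at 0 there, 0 of 660986 UMIs, which allows up to 4.54 CPM each by counting error alone. Cidea was at 5.35 CPM in all other spots and Ucp1 at 0.0261 CPM, too low for its 0 to be read. The brown fat markers Dio2 and Elovl3 were detected in the Nnat-led region. Dio2 was at 7.56 CPM there, from 5 UMIs, against 6.66 CPM elsewhere, and Elovl3 at 6.05 CPM, from 4 UMIs, against 8.85 CPM.

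Other cell types were also present in those spots. Endothelial markers summed to 738 CPM in the Nnat-led region and 390 CPM elsewhere, and epidermis markers to 2319 and 1467 CPM. Tenocyte markers were lower there, at 1067 CPM against 4563 CPM, as were those of the sebaceous gland, the oil gland of the hair follicle, at 65.1 CPM against 138 CPM. The part of these cells in the levels of the 10 genes was not tested.

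Among the secreted genes, Cfd reached 7499 CPM in the Nnat-led region, against 184 CPM in the next highest region, which was led by the epidermal genes Krt77 and Lor. Adipoq was at 1177 CPM there, against 27.4 CPM in the Krt77-led region. Retn was at 566 CPM, against 15.3 CPM in the Krt77-led region, and Lep at 130 CPM, against 3.02 CPM. For these 4 genes the Nnat-led region was 36.9-fold to 43.1-fold above the next one. The Krt77-led region lay mostly in F592A sections, with 488 spots in each, against 46 and 55 in WT sections. Its Cfd level was 113 and 263 CPM in F592A sections, against 24.4 and 10.3 CPM in WT sections, and its Adipoq level 19.7 and 36.8 CPM in F592A sections, against 6.10 and 5.14 CPM in WT sections. The Nnat-led region held 39.1% of all Lep UMIs, 27.3% of Retn, 22.3% of Adipoq and 20.7% of Cfd, from 1.39% of the spots.

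The droplet genes split. Cidec was at 710 CPM in the Nnat-led region and 15.2 CPM in the next, a small region led by the smooth muscle genes Myh11 and Cnn1, and Plin1 was at 413 CPM, against 22.4 CPM in the Krt77-led region. Plin4 was at 383 CPM in the Nnat-led region, against 85.8 CPM in the Myh11-led region and 79.7 CPM in the region of slow muscle, whose leading genes include Myl3. The Nnat-led region was thus 46.6-fold, 18.5-fold and 4.46-fold above the next region for Cidec, Plin1 and Plin4, and it held 11.2% of Plin4 UMIs.

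Lpl, Fabp4 and Pparg were highest in the Nnat-led region too, which held at most 11.02% of the UMIs of each. Lpl was at 3354 CPM there, against 1766 CPM in the Myl3-led region, and the Nnat-led region held 4.63% of its UMIs. Over the 13 other regions Lpl correlated with the slow muscle markers (Pearson r = 0.75 across regions, which share sections and are no replicates). Those markers summed to 16040 CPM in the Myl3-led region and at most 4071 CPM in the rest, so that region weighs heavily in r. Fabp4 was at 9253 CPM, against 640 CPM in the Myl3-led region, with 11.02% of its UMIs in the Nnat-led region. Pparg, with 5.09% of its UMIs there, was at 49.9 CPM, against 14.5 CPM in a region led by Fa2h and Elovl4, where sebaceous markers summed to 1292 CPM. Pparg is known to act in sebaceous gland cells as well, and over the 13 regions it correlated with the sebaceous markers (r = 0.86). Those markers summed to at most 399 CPM outside the Fa2h-led region, so that region weighs heavily in r.

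**Figure D1:**
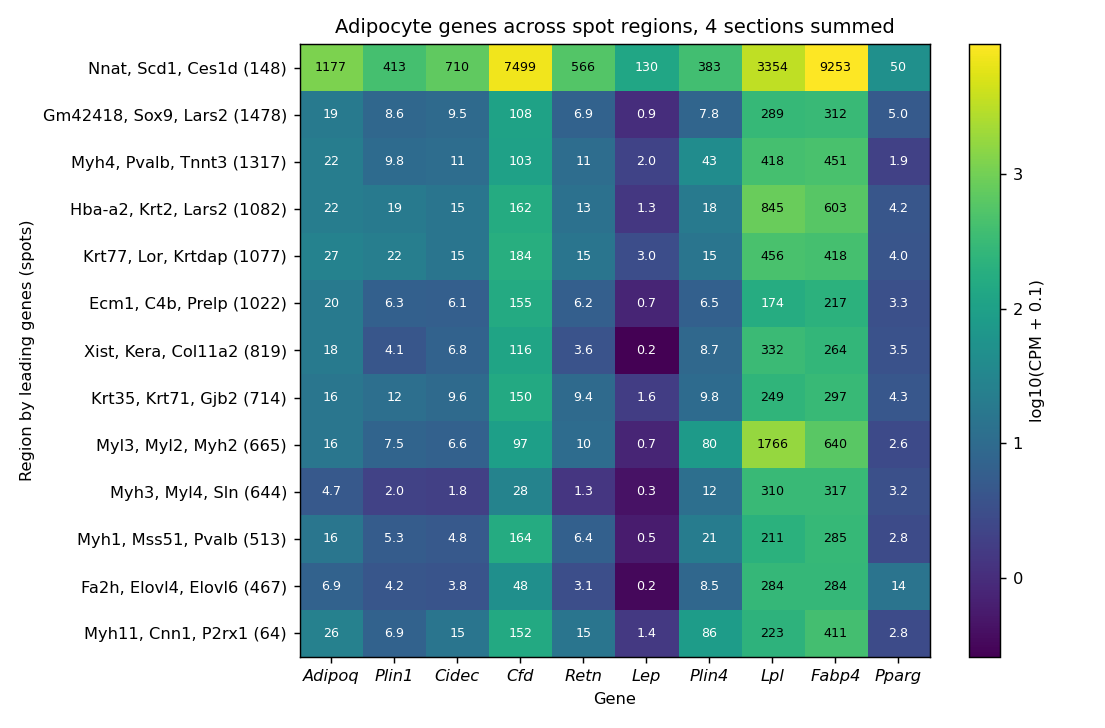
Levels of the 10 adipocyte genes (columns) in 13 of the 14 regions of spots (rows, named by leading genes, with the number of spots), as CPM of the region over the 4 sections. The colour is log10(CPM + 0.1). All 10 genes are highest in the top row, the Nnat-led region, while Lpl is also high in the Myl3-led region and Pparg in the Fa2h-led region.

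In the Nnat-led region there were 6.37 Cfd UMIs for each Adipoq UMI, and the median of the 13 other regions was 6.33, with a range of 4.22 to 10.2. The ratio of Retn to Adipoq was 0.481 in the Nnat-led region and had a median of 0.452 elsewhere, with a range of 0.198 to 0.667. Cidec stood at 0.603 in the Nnat-led region, against a median of 0.488 elsewhere, and Plin1 at 0.351, against 0.440. Lep was at 0.111 for each Adipoq UMI in the Nnat-led region, against a median of 0.0526 in the others. Plin4 was at 0.325, against a median of 0.838, and Fabp4 at 7.86, against 18.9. Lpl was farther apart, with 2.85 UMIs for each Adipoq UMI in the Nnat-led region, against a median of 16.6 and a highest value of 112 in other regions. Pparg stood at 0.0424 for each Adipoq UMI in the Nnat-led region, against a median of 0.190 and a highest value of 2.10 in the others. The ratios of Cfd and Retn to Adipoq in the Nnat-led region were thus close to their medians elsewhere. Those of Cidec and Lep were above their medians, and those of Plin1, Plin4, Fabp4, Lpl and Pparg were below theirs. With all other spots summed, the ratio was 7.01 for Cfd, 0.368 for Retn and 0.382 for Cidec. Whether Adipoq, Cfd and Retn UMIs in other regions came from fat cells in those spots or from RNA that moved across the slide was not tested.

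Outside the Nnat-led region the adipocyte genes were scattered. Adipoq had a UMI in 75.0% of the Nnat-led spots, at a median depth of 3812 UMIs, and in 11.1% of the other spots, at 6315 UMIs. In the Myh3-led region of regenerating muscle, where Adipoq was lowest at 4.68 CPM, the share was 9.01% at a median of 18626 UMIs. That region lay mostly in WT sections, with 439 and 170 spots, against 29 and 6 in F592A sections. Of 2709 Adipoq UMIs outside the Nnat-led region, 827 stood alone in their spot and 1278 lay in 87 spots with 5 or more. By distance on the spot grid, Adipoq was at 1177 CPM in the region, 108 CPM at 1 step, 38.7 CPM at 2 steps, 20.2 CPM at 3 to 5 steps, 21.0 CPM at 6 to 10 steps and 14.3 CPM farther away. Cfd was higher at 6 to 10 steps than at 3 to 5 steps, with 171 CPM against 114 CPM, as it was in both F592A sections and in WT 2 but not in WT 1. Beyond 10 steps Cidec was at 5.20 CPM and Lep at 0.720 CPM. Lpl had a shallower profile, with 1136 CPM at 1 step, 535 CPM at 3 to 5 steps and 249 CPM beyond 10.

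**Figure D2:**
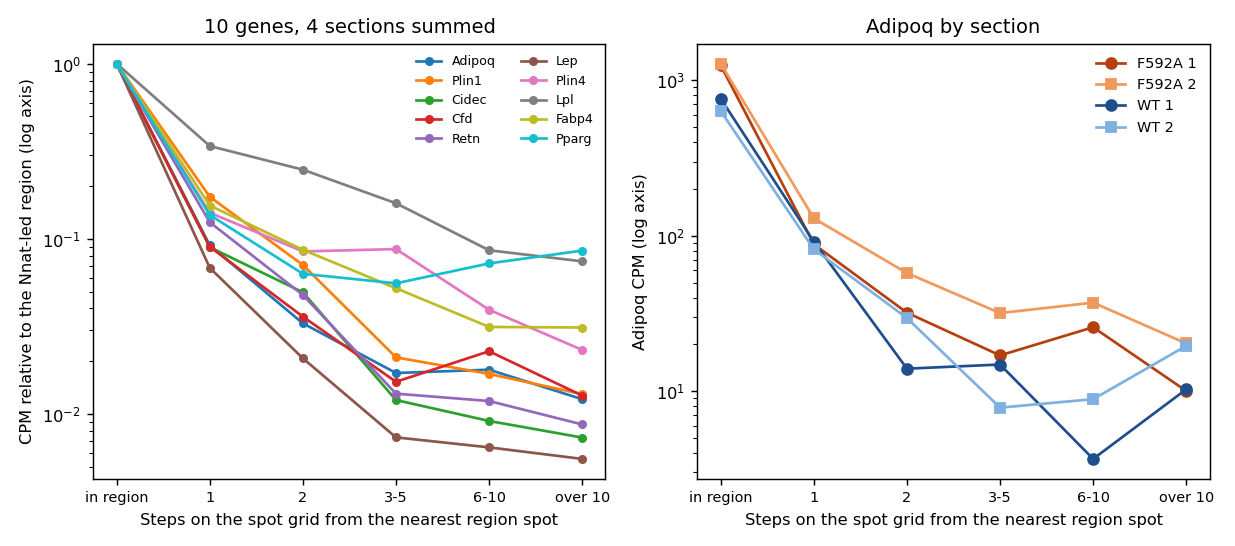
Left, CPM of each gene relative to the Nnat-led region (log axis) by steps on the spot grid from the nearest spot of that region, the 4 sections summed. Right, Adipoq CPM (log axis) by the same steps in each section. Beyond 10 steps Lep and Cidec have the lowest relative levels and Pparg and Lpl the highest. Adipoq is lower at 1 step than in the region in all 4 sections, although WT 2 rests on 2 spots of the region.

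Of 345 spots next to a Nnat-led spot, 29.3% belonged to a region led by Hba-a2 and Krt2 (10.3% of all other spots), 24.6% to the epidermal Krt77-led region (10.3%) and 18.3% to the fast muscle region led by Myh4 (12.5%). The sections differed in this. The Hba-a2-led region took 10.9% and 5.97% of the neighbours in F592A sections, against 75.7% in WT 1, which held 81 of the 101. The Krt77-led region took 29.3% and 42.5% in F592A sections, against 0.935% in WT 1, and WT 2 had 12 neighbours in all. The Ecm1-led region, whose leading genes Ecm1, C4b and Prelp belong to matrix and stroma, made up 1.16% of the neighbours and 9.73% of all other spots. None of the 345 neighbours lay in the hair region led by Krt35 or in the Fa2h-led region.

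The Nnat-led region took 46 spots (1.62%) of F592A 1 and 66 spots (2.40%) of F592A 2, against 34 spots (1.12%) of WT 1 and 2 spots (0.0988%) of WT 2. These fell into 11 and 18 patches in F592A sections, the largest of 20 and 26 spots, against 14 and 2 patches in WT sections, the largest of 10 and 1 spots. Both F592A sections stood above both WT sections, and WT 2 held almost none of the region. The lower of the 2 large tissue pieces of each F592A section, taken alone, held 10 of 1603 spots (0.624%) in F592A 1 and 11 of 1482 spots (0.742%) in F592A 2, below WT 1 and above WT 2. No test was made, because regions were clustered from the same spots.

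**Figure D3:**
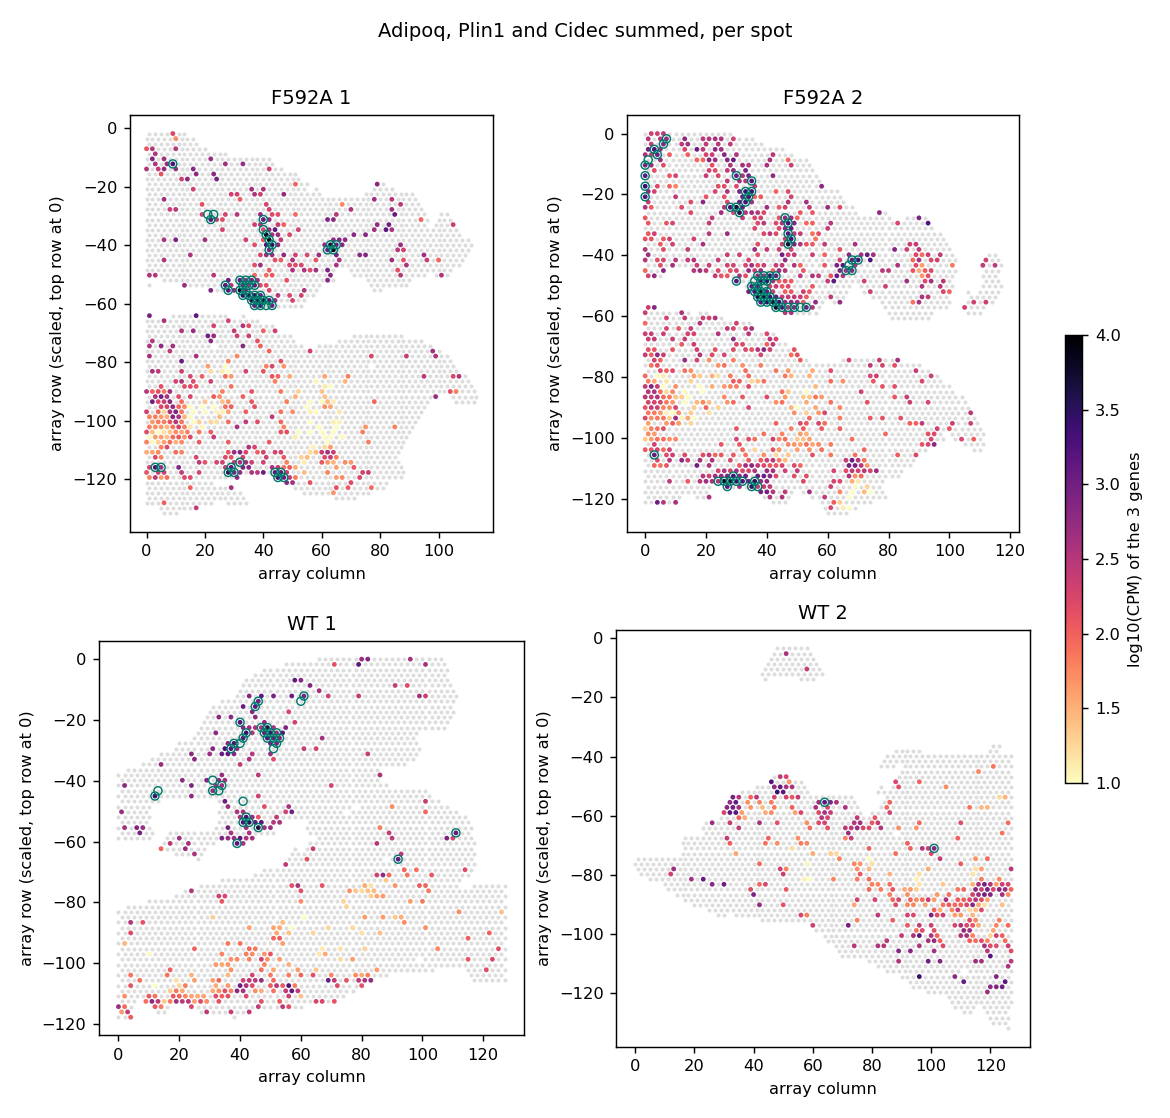
Kept spots of the 4 sections by array column and scaled array row, F592A above and WT below. Colour gives log10(CPM) of Adipoq, Plin1 and Cidec summed where at least 1 UMI was found, grey spots had none, and green rings mark the Nnat-led region (46, 66, 34 and 2 spots). The rings gather in patches, most of them in the upper piece of each F592A section.

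In whole sections, 7 of the 10 genes were higher in both F592A sections than in both WT sections, and 6 of these were at least 2-fold higher on average. Of 16347 genes tested, 43.7% did not overlap in either direction, 23.4% were higher in both F592A sections, and 1.99% were also at least 2-fold higher. None of the 10 passed the test across all genes, the quasi-likelihood test of edgeR with Benjamini-Hochberg adjustment at 0.05, which called 13 genes (0.0795%). The median log2 fold change of the 10 genes was 1.16, against -0.00 for all genes tested.

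Adipoq was at 22.4 and 40.4 CPM in F592A sections, against 11.8 and 16.5 CPM in WT sections. The groups did not overlap and the mean was 2.22-fold higher, with a log2 fold change of 1.12 ± 0.30 (SE) and an adjusted p of 0.28 in edgeR. Cfd was at 167 and 286 CPM in F592A sections, against 61.0 and 112 CPM in WT sections, 2.61-fold higher (log2 1.35 ± 0.37, edgeR adjusted p 0.28). Its lowest F592A section lay above its highest WT section. Retn had the largest difference, with 8.19 and 18.6 CPM in F592A sections, against 4.59 and 4.18 CPM in WT sections, 3.05-fold higher (log2 1.57 ± 0.37, edgeR adjusted p 0.24). F592A 2 stood well above F592A 1, while the WT sections were close together. Lep was at 1.41 and 2.53 CPM in F592A sections, against 1.17 and 0.464 CPM in WT sections, from 62 and 94 UMIs against 50 and 14. Its log2 fold change of 1.21 ± 0.49 had an edgeR adjusted p of 0.43, and F592A 1 and WT 1 lay close together.

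The droplet genes were also higher in both F592A sections. Plin1 was at 8.03 and 16.5 CPM in F592A sections, against 5.13 and 5.31 CPM in WT sections (log2 1.20 ± 0.33, edgeR adjusted p 0.28). Cidec was at 10.1 and 17.4 CPM in F592A sections, against 5.08 and 6.53 CPM in WT sections (log2 1.21 ± 0.29, edgeR adjusted p 0.24). For both genes the groups did not overlap and F592A 2 was highest. Plin4 was at 14.6 and 20.1 CPM in F592A sections, against 11.8 CPM in each WT section, a smaller difference (log2 0.52 ± 0.16, edgeR adjusted p 0.33).

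Lpl, Fabp4 and Pparg overlapped between the groups. Lpl was at 266 and 310 CPM in F592A sections, against 372 and 288 CPM in WT sections (log2 -0.22 ± 0.15, edgeR adjusted p 0.63). Fabp4 was at 286 and 423 CPM in F592A sections, against 436 and 283 CPM in WT sections (log2 -0.04 ± 0.25, edgeR adjusted p 0.97). Pparg was at 4.03 and 4.64 CPM in F592A sections, against 4.73 and 3.18 CPM in WT sections (log2 0.10 ± 0.24, edgeR adjusted p 0.91). These were the 3 genes with the least of their UMIs in the Nnat-led region, although Fabp4 (11.02%) was nearly level with Plin4 (11.2%), which did not overlap. Whether that share bears on the overlap was not tested.

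**Figure D4:**
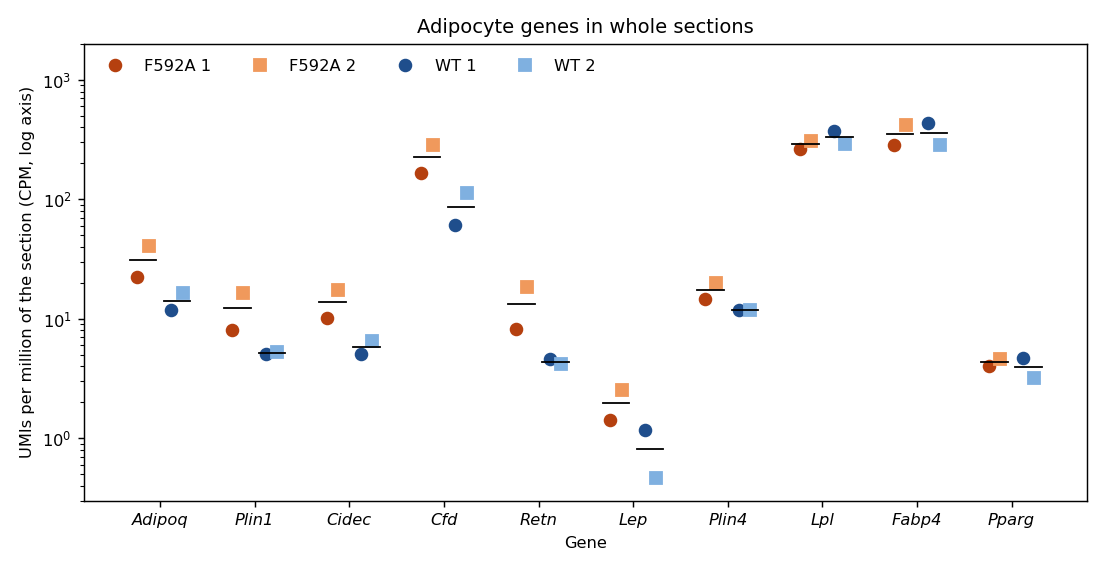
CPM of each adipocyte gene (log axis) in whole sections, with 1 point per section and a bar at the mean of each group. Adipoq, Plin1, Cidec, Cfd, Retn, Lep and Plin4 have both F592A sections above both WT sections, and Lpl, Fabp4 and Pparg overlap.

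Without the adjustment, 6 of the 10 genes had p under 0.05 in edgeR (Adipoq, Plin1, Cidec, Cfd, Retn and Plin4), as did 11.8% of all genes tested. DESeq2 called 4 of them higher (Cidec, Plin1, Retn and Adipoq), where it called 1.33% of genes higher and 2.6% in either direction. Without the filter on low counts edgeR called 5 of the 10 higher (these and Cfd), where 1.13% of genes were called higher. The sections in which these genes were high also held more of the Nnat-led region, and its part in the differences was measured. Of the F592A minus WT difference in mean CPM, spots of that region carried 68.8% for Lep, 57.3% for Cidec, 45.1% for Adipoq, 40.5% for Retn, 39.9% for Plin4, 35.8% for Plin1 and 34.2% for Cfd. With those spots left out, the log2 fold change was 1.24 for Retn, 1.08 for Cfd, 0.94 for Plin1, 0.76 for Adipoq, 0.71 for Cidec, 0.57 for Lep and 0.35 for Plin4, and edgeR called 0 of the 10. With the spots within 5 steps of that region left out as well, it was 1.10 for Retn, 1.05 for Cfd, 0.79 for Plin1, 0.63 for Adipoq, 0.42 for Cidec, 0.33 for Lep and 0.0098 for Plin4, and edgeR again called 0.

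**Figure D5:**
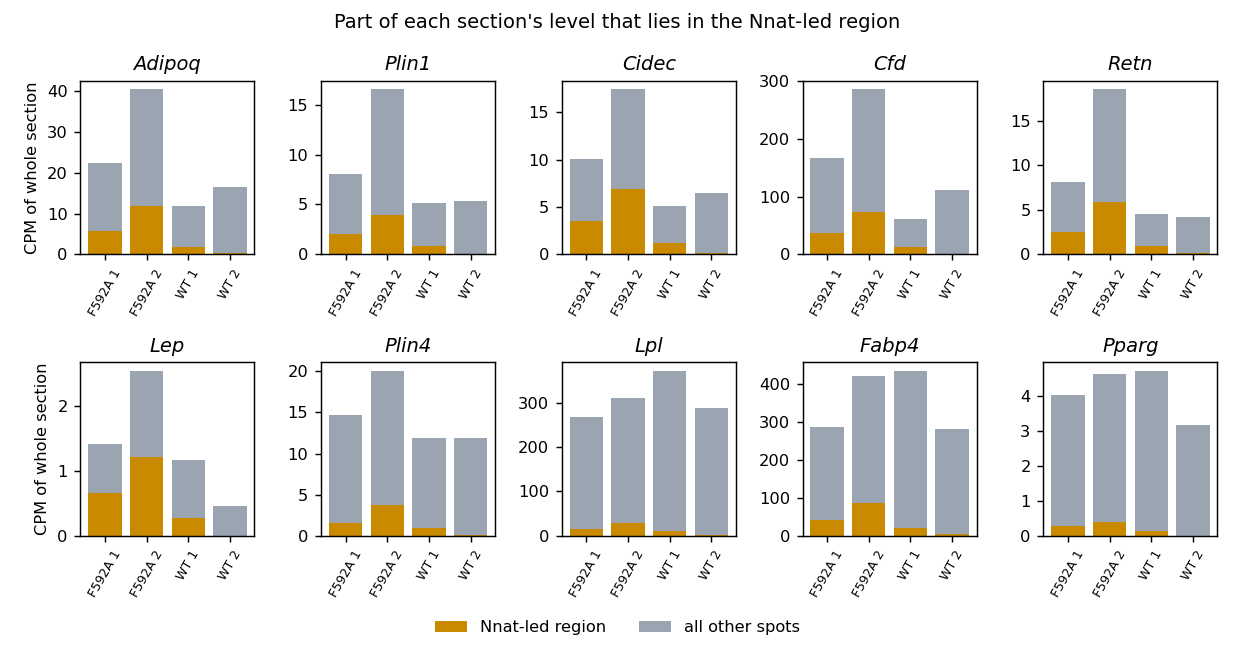
CPM of each gene in whole sections, split into UMIs from spots of the Nnat-led region (gold) and from all other spots (grey), with bars from 0. In F592A sections the gold share of a bar is largest for Lep, Cidec and Retn, and in WT 2 it is near 0 for every gene.

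Within the Nnat-led region itself, Adipoq was at 1247 and 1278 CPM in F592A sections, against 762 and 634 CPM in WT sections, the last from 9 UMIs. Cfd was at 7946 and 7936 CPM in F592A sections, against 5752 and 2818 CPM in WT sections. Fabp4 was at 9059 and 9353 CPM in F592A sections, against 9129 and 10428 CPM in WT sections. Adipoq and Cfd were thus higher in F592A spots of that region, as were Plin1, Cidec, Retn and Lep, and Fabp4 was not. Lpl was not higher either, at 3170.5 and 3054 CPM in F592A sections, against 4790 and 3170.8 CPM in WT sections. Plin4 and Pparg overlapped. The other adipocyte list was also higher there, at 3389 and 3337.5 CPM in F592A sections, against 2565 and 2043 CPM in WT sections. Slow muscle markers were lower, at 1034 and 914 CPM against 2856 and 1550 CPM. WT 2 had 2 such spots, and no test was made.

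The 2 large pieces of tissue in each F592A section had different levels of these genes. Adipoq was at 61.4 and 80.8 CPM in the upper pieces of F592A 1 and F592A 2, against 17.3 and 31.0 CPM in their lower pieces. Lep was at 6.25 and 9.80 CPM in the upper pieces, against 0.772 and 0.837 CPM in the lower pieces. Plin4 was at 52.8 and 56.5 CPM in the upper pieces, against 9.60 and 11.5 CPM in the lower ones. The upper pieces held 36 and 55 Nnat-led spots, against 10 and 11 in the lower pieces. Most of their other spots were fast muscle and epidermis, with 32.8% and 30.5% in the Myh4-led region and 37.8% and 39.5% in the Krt77-led region. The Myl3-led region of slow muscle took 14.6% and 15.9% of the upper pieces, against 0.0624% and 0% of the lower pieces. Plin4 was at 79.7 CPM in the Myl3-led region and 43.1 CPM in the Myh4-led region. The part of muscle in the difference between pieces was not tested. The upper pieces were also shallow, with a median of 3400 and 5015 UMIs per spot, against 8942 and 9320 in the lower pieces. The labels do not say which animal a piece came from.

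Without the upper pieces, the difference in whole sections was smaller. The log2 fold change became 1.12 for Cfd, 1.02 for Retn, 0.75 for Adipoq, 0.74 for Plin1 and 0.67 for Cidec, and turned to -0.049 for Lep and -0.17 for Plin4. This also took out 179 and 194 Myl3-led spots of slow muscle from the F592A sections, while WT 1 kept 289. Adipoq was at 17.3 and 31.0 CPM in the lower F592A pieces, against 11.8 and 16.6 CPM in the large WT pieces. Retn was at 5.69 and 12.3 CPM in the lower F592A pieces, against 4.59 and 4.14 CPM in the large WT pieces. Lep, at 0.772 and 0.837 CPM in the lower F592A pieces, lay between the WT values of 1.17 and 0.467 CPM.

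Levels were also compared in spots chosen by the other adipocyte list, the 533 spots (5.01%) with the highest CPM of that list. Of these, 140 were in the Nnat-led region. Chosen spots numbered 144 and 169 in F592A sections, against 153 and 67 in WT sections. The Nnat-led region had 46 and 66 spots in F592A sections, against 34 and 2 in WT sections, so its share of the chosen spots differed by section. The chosen spots held a median of 3 UMIs of the list, and 122 of them had 1, so many rest on single molecules. They were also shallow, with a median of 2748 UMIs, against 6520 in the other spots. They made up 5.08% and 6.15% of spots in F592A sections, against 5.03% and 3.31% in WT sections, a difference of 1.45 percentage points that an exact two-sided permutation test over sections placed at p = 0.33, the smallest p that 2 sections against 2 allow. The difference was 1.17 points with 2% of spots and 4.202 with 10%. It was 2.36 after thinning each spot to 2000 UMIs and counting spots with at least 2 list UMIs. Spots under 2000 UMIs were left out of that share, 337 and 58 in F592A sections, against 457 and 287 in WT sections. Of the Nnat-led spots, 7 and 1 were left out in F592A sections, against 13 and 0 in WT sections, so the thinned share covers different spots. In the 533 chosen spots Adipoq was at 576 and 627 CPM in F592A sections, against 379 and 292 CPM in WT sections. Cidec was at 338 and 375 CPM in F592A sections, against 210 and 122 CPM in WT sections, and Lep at 50.2 and 61.8 CPM in F592A sections, against 33.8 and 6.43 CPM in WT sections. Lpl overlapped, at 1688 and 1793 CPM in F592A sections, against 2613 and 1018 CPM in WT sections.

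In these spots edgeR called 0 of the 10 genes, and 5 of 7978 genes in all (0.0627%). Unadjusted p was under 0.05 for 7 of the 10 (6.61% of all genes), and DESeq2 called 0. The log2 fold change was 1.35 ± 0.48 for Lep, 1.09 ± 0.32 for Cidec, 1.09 ± 0.33 for Plin4, 0.90 ± 0.32 for Retn, 0.84 ± 0.30 for Adipoq, 0.84 ± 0.34 for Cfd and 0.69 ± 0.32 for Plin1. Without WT 1 edgeR called 6 genes higher (Lep, Cidec, Plin1, Retn, Adipoq and Plin4), where 1.67% of genes were called higher. The Lep value was 3.13 without WT 1, 0.73 without WT 2 and 0.65 with 10% of spots, and Plin4 ranged from 0.56 with 10% of spots to 1.76 without WT 1. For Cidec the values were 1.58 without WT 1 and 0.61 with 10% of spots, for Retn 1.35 and 0.58, for Adipoq 1.08 and 0.47, and for Plin1 1.26 and 0.39, with 0.33 for Plin1 without WT 2. For Cfd they were 0.85 without WT 1, 0.56 with 10% of spots and 1.13 with 2%.

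In the remaining spots edgeR called 0 of the 10 genes and 5 of 16270 in all (0.0307%), with 3 of the 10 at unadjusted p under 0.05 (11.7% of all genes), and DESeq2 called Retn, among 2.55% of all genes. Retn was at 4.87 and 11.8 CPM there in F592A sections, against 2.73 and 3.05 CPM in WT sections (log2 1.49 ± 0.42, edgeR adjusted p 0.30). Cfd was at 110 and 204 CPM in F592A sections, against 38.4 and 89.5 CPM in WT sections (log2 1.25 ± 0.47, edgeR adjusted p 0.40). The groups did not overlap for either gene.

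Only the Ecm1-led and Krt35-led regions had at least 50 spots in every section. In the Ecm1-led region edgeR called 0 of the 10 genes and 21 of 14139 in all (0.149%), with 1 of the 10, Fabp4, at unadjusted p under 0.05 (11.2% of all genes), and DESeq2 called 0. Adipoq was at 15.2 and 30.2 CPM in F592A sections, against 7.97 and 22.4 CPM in WT sections, and the groups overlapped. Its log2 fold change of 0.49 became 2.78 at Leiden resolution 1 (edgeR adjusted p 0.29), and that of Cfd, 0.96, became 3.30 (0.32), neither of them called. Fabp4 was at 195 and 197 CPM in F592A sections, against 232 and 276 CPM in WT sections, without overlap (log2 -0.41 ± 0.12, edgeR adjusted p 0.33). In the Krt35-led hair region 8 of the 10 genes passed the filter on low counts. There edgeR called 0 of 8 and 1 of 11367 genes in all (0.0088%), with Plin1 and Retn at unadjusted p under 0.05 (4.65% of all genes), and DESeq2 called 0. Adipoq was at 22.3 and 23.1 CPM there in F592A sections, against 3.37 and 22.6 CPM in WT sections. WT 1 stood apart from the other 3 sections, and without WT 2 edgeR called 7 of the 8, where it called 7.03% of all genes.

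Other genes of adipocyte biology were read from 9 lists of 74 genes, of which 69 were tested in whole sections and edgeR called 0. Unadjusted p in edgeR was under 0.05 for 13 of the 69, and for 11.8% of all genes tested. The lists were chosen with earlier results of these data known, so the 13 are given as a description. All 13 genes of triglyceride and fatty acid synthesis had a positive log2 fold change, none past the threshold, with a median of 0.29 against -0.00 for all genes. Dgat2, which adds the last fatty acid to triglyceride, was at 37.0 and 51.4 CPM in F592A sections, against 30.6 and 24.01 CPM in WT sections (log2 0.67 ± 0.17, edgeR adjusted p 0.27). Acly, which supplies acetyl-CoA for fatty acids, was at 108 and 132 CPM in F592A sections, against 88.7 and 81.1 CPM in WT sections. Lpin1, a phosphatidate phosphatase, was at 46.8 and 55.6 CPM in F592A sections, against 40.1 and 33.5 CPM in WT sections. Neither overlapped between groups, as was so for 43.7% of all genes tested. The genes named here were those with the smallest p of their list in this same fit.

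Among 10 adipogenic transcription factors, 5 were positive and 5 negative. Cebpd, an early factor of adipogenesis that acute-phase signals also induce, was at 110 and 97.9 CPM in F592A sections, against 57.0 and 55.7 CPM in WT sections (log2 0.86 ± 0.11, edgeR adjusted p 0.13). Cebpa, which sustains the mature adipocyte, was at 54.4 and 74.5 CPM in F592A sections, against 48.7 and 41.0 CPM in WT sections, and Rxra, the partner of Pparg, at 61.4 and 64.2 CPM in F592A sections, against 53.6 and 48.3 CPM in WT sections. All 3 were higher in both F592A sections, as were 23.4% of all genes tested, and none passed the test. They were named for the smallest p of the list in this same fit, so their order between groups is no separate result. The median of the list was 0.04.

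The lists around the droplet, lipolysis and Lpl had small medians of 0.09, 0.15 and -0.06. Of 9 other droplet coat genes 7 were positive, led by Hilpda, an inhibitor of the lipase ATGL, at 21.1 and 20.6 CPM in F592A sections, against 15.9 and 15.7 CPM in WT sections, with Plin5 and Plin2 next by p. Of 9 lipolysis genes 6 were positive. Pde3b, which blunts lipolysis downstream of insulin, was at 21.2 and 18.9 CPM in F592A sections, against 24.3 and 25.6 CPM in WT sections, and Lipe at 21.7 and 37.6 CPM in F592A sections, against 20.1 and 21.3 CPM in WT sections. Of 10 Lpl partners 3 were positive. Apoc2, the cofactor of Lpl, was at 2.71 and 2.40 CPM in F592A sections, against 1.63 and 1.72 CPM in WT sections, and Vldlr, a receptor of triglyceride-rich lipoproteins, at 28.0 and 30.8 CPM in F592A sections, against 27.1 and 20.4 CPM in WT sections.

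Of 7 adipokine receptor genes 5 were positive (median 0.11), and Cap1, a receptor of resistin described in human cells, was at 153 and 176 CPM in F592A sections, against 114 and 142 CPM in WT sections. Cdh13, which binds adiponectin, was at 95.7 and 110 CPM in F592A sections, against 88.8 and 87.1 CPM in WT sections. Of 8 insulin response genes 4 were positive, and Pck1 was at 3.91 and 7.47 CPM in F592A sections, against 1.21 and 2.29 CPM in WT sections (log2 1.68 ± 0.44, edgeR adjusted p 0.28). Fabp5 and Fabp3, the 2 tested relatives of Fabp4, overlapped between the groups. Retnla, the resistin relative of alternatively activated macrophages and the only tested gene of its list, had lower values in F592A sections, at 23.8 and 33.7 CPM, against 79.4 and 34.3 CPM in WT sections (log2 -1.004 ± 0.37, edgeR adjusted p 0.39). Of the other adipocyte list 9 of 10 genes were positive, with a median of 0.90, and edgeR called 0. Cyp2e1 was at 13.2 and 26.6 CPM in F592A sections, against 6.13 and 3.22 CPM in WT sections (log2 2.05 ± 0.41, edgeR adjusted p 0.20).

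The genes whose pattern over spots was most like the sum of Adipoq, Plin1 and Cidec were ranked by the mean of the Pearson correlations within the 4 sections, over 10760 genes, with the 10 members and the other adipocyte list left out. Correlations of such sparse counts are weak and share the depth of the spots, and they are given as a description. Nnat came first among the ranked genes (mean r = 0.26), followed by Hp, haptoglobin (0.22), Trf (0.21), complement C3 (0.20), Lrg1 (0.19), Scd1 (0.18), Ces1d (0.18) and Gsn, gelsolin (0.17). Of the members outside that sum, Cfd had a mean r of 0.34, Retn 0.29, Fabp4 0.22, Lep 0.18, Plin4 0.14, Lpl 0.14 and Pparg 0.08. In the other adipocyte list Cyp2e1 had 0.31, above Nnat, and Lipe 0.25. In whole sections Nnat was at 14.4 and 28.8 CPM in F592A sections, against 10.6 and 7.79 CPM in WT sections, an order of groups like that of Adipoq, while Lrg1 was at 42.4 and 37.8 CPM in F592A sections, against 52.1 and 48.1 CPM in WT sections. None of the 8 passed edgeR's test.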

How the data were processed

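Spatial transcriptomes were analysed in 4 sections, 2 F592A and 2 WT. The matrices deposited by the authors hold unnormalized UMI counts, written by Space Ranger 1.3.0 per the file headers, and mm10 and Seurat 3 are named in the submitters' processing notes. Spot positions, barcodes and gene symbols were taken unchanged. Spots with at least 500 UMIs were kept, leaving out 3 or 4 per section. The members and lists were chosen with earlier results of these data known.

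Regions came from scanpy 1.11.5 (counts to 10000 per spot, log, 2000 variable genes, 30 components, 20 neighbours, Leiden resolution 0.6 with leidenalg 0.10.2, seed 0) without the 10 genes and the other adipocyte list. Leading genes were ranked by fold over all other spots, with 20 CPM added. Counts were summed per section and tested with edgeR 4.0.16 (TMM, filterByExpr, quasi-likelihood) on R 4.3.3, adjusted over all genes tested. SEs were taken as log2 fold change divided by the root of F, and CPM are unscaled shares of a section's UMIs, with counting error only. The fits were tested on simulated counts first. Thinned spots counted as list spots with 2 or more list UMIs, a limit set after the design. A gene of 1 list and the row of 1 region are not reported here. Pieces are connected kept spots, at least 50 of them.

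As alternatives, all deposited spots were used, low counts were not filtered, sections were left out in turn, the section number was a block, and DESeq2 1.42.0 or RLE scaling replaced the main choice, as did other spot sets and Leiden resolution 1. Leaving out the Nnat-led region, the spots around it or the upper F592A pieces, and the crossed pairing, were added after seeing the data. Named genes were the 10 members, up to 3 genes per list by smallest p, and 8 genes by likeness to Adipoq, Plin1 and Cidec with at least 1000 UMIs. RefSeq sequences are of GRCm38.p6, the build that mm10 names.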

Additional observations from a re-analysis of the deposited data

Results flagged for a closer look

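Lep was flagged because its difference had opposite signs in the Ecm1-led and Krt35-led regions, with both sections of a group on the same side in each. In the Ecm1-led region it was at 0.574 and 0.628 CPM in F592A sections, against 0.871 and 0.838 CPM in WT sections, from 15 and 10 UMIs against 7 and 11, a log2 fold change of -0.54 that edgeR did not call (adjusted p 0.69). In the Krt35-led region it was at 1.40 and 3.15 CPM in F592A sections, from 1 and 6 UMIs, against 0.561 CPM from 1 UMI in WT 1 and 0 UMIs in WT 2. Lep did not pass the filter on low counts there, and the difference between the regions was not tested.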

How the results depend on the processing

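In whole sections 0 of the 10 genes passed edgeR, 4 passed DESeq2 and 5 without the filter on low counts (Cidec, Plin1, Retn, Cfd and Adipoq), and leaving out a section gave 0 to 1 (Cfd without WT 2). Of 105 results for the 7 higher genes over 15 alternatives, 93 kept their direction and side of the threshold, 10 passed it and 2 reversed, which were Lep (-0.049) and Plin4 (-0.17) without the upper F592A pieces. Over left-out sections the log2 fold change ranged from 0.67 to 1.46 for Adipoq, 0.63 to 1.61 for Plin1, 0.81 to 1.53 for Cidec, 0.95 to 1.90 for Cfd, 0.91 to 2.03 for Retn, 0.76 to 2.01 for Lep and 0.31 to 0.71 for Plin4. Without the muscle-led spots it was 0.58 for Adipoq, 0.68 for Plin1, 0.74 for Cidec, 0.83 for Cfd, 0.97 for Retn, 0.72 for Lep and 0.41 for Plin4. Fabp4 reversed with a range of -0.31 to 0.26 over left-out sections, and Pparg with -0.12 to 0.38 and with -0.10 without the muscle-led spots. In adipocyte-list spots leaving out a section gave 0 to 6 calls, and Lpl reversed with the replicate block (0.10) and over left-out sections (-0.59 to 0.81). Outside those spots DESeq2 called 1, no filter 2 and left-out sections 0 to 1. In the Ecm1-led region no filter gave 4 and left-out sections 0 to 1, and Adipoq ranged from -0.052 to 1.42 over left-out sections. In the Krt35-led region no filter gave 1 and left-out sections 0 to 7, and Cfd ranged from -0.24 to 2.16. The median share of a member's UMIs in adipocyte-list spots, 31.8% with 5% of spots, was 22.4% with 2% and 43.6% with 10%. The excess of such spots in F592A sections ranged from 0.588 to 2.31 percentage points over left-out sections. For the fits without the filter outside adipocyte-list spots and in both regions, no share of all genes called is given. The same holds for most fits with a section left out. Whether members were called more often than other genes in those fits was therefore not tested, and their counts are given as a description. The causes were not tested.

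Over all genes in whole sections, 13 were called, against 423 by DESeq2, 5 with RLE scaling, 546 without the filter, 4 without muscle and epidermis genes, 5 and 7 without the Nnat-led region and without it and the spots around it, 2 without the upper pieces, and 0 to 390 over left-out sections. In adipocyte-list spots it was 5, against 60 without the filter, 0 and 2 with 2% and 10% of spots, and 11 to 268 over left-out sections. Outside them it was 5, against 414 by DESeq2, 559 without the filter and 0 to 337 over left-out sections. In the Ecm1-led region it was 21, against 149 by DESeq2, 895 without the filter, 4 at Leiden resolution 1 and 19 to 150 over left-out sections. In the Krt35-led region it was 1, against 43 without the filter and 8 to 874 over left-out sections. The Krt35-led region at Leiden resolution 1 could not be fitted, since its match had 34 spots in WT 2.

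Same-numbered sections deviated in opposite directions (correlation -0.14 over 16347 genes), and the labels do not say that a number pairs them. With the replicate block, members called remained 0 in whole sections, adipocyte-list spots, the other spots and both regions, and genes called were 7 in whole sections, 84 in the Ecm1-led and 5 in the Krt35-led region. With the crossed pairing, 0 members and 189 genes were called. With a median of 3 list UMIs per chosen spot and 220 Lep UMIs in all, depth limits what can be said of single spots and of Lep.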
